A study of Homo sapiens with 4 samples.

Results

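The genes of fatty acid oxidation and of the peroxisome were followed in AGS cells, a line established from a human stomach adenocarcinoma. The list holds 44 genes, of which 17 act in mitochondrial oxidation, 11 in peroxisomal oxidation and 12 are peroxins, beside 2 ABCD transporters and 2 nuclear receptors. A gene counted as measured if a transcript cluster (the set of probes for 1 transcript locus) carried its symbol and no other. This held for 41 of the 44, out of 18417 genes with such a cluster, and each of the 41 had exactly 1. The only AMACR cluster carries a further symbol, so AMACR was left out, and SCP2 and PEX13 were not analysed here. One group of cells had received 0.01% ornithogalum, a homeopathic formulation, for 36 h. The other had received ethanol, the vehicle, for 36 h. Each group has 2 arrays, which the labels call biological replicates. Nothing says that they were cultured at separate times, so a p-value here reflects the spread among these 4 arrays, which may be technical. Values are log2 expression values deposited by the authors, and the number of arrays limits their precision.

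Fatty acids enter mitochondria as carnitine esters through the carnitine palmitoyltransferases and are then shortened in a cycle of dehydrogenation, hydration, a second dehydrogenation and thiolytic cleavage. Electrons from the first step pass through the electron transfer flavoprotein to the respiratory chain. Peroxisomes shorten very-long-chain and branched fatty acids with a separate set of enzymes, whose first oxidase passes its electrons to oxygen and makes hydrogen peroxide, which catalase removes. Peroxins build peroxisomes and import their enzymes, and the nuclear receptors PPARA and PPARD switch on many oxidation genes. Both pathways run in most cells, those of the gastric epithelium included.

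The promoters of 4 mitochondrial genes are shown, a head-to-head pair and the genes of largest fall. HADHA and HADHB encode the subunits of 1 enzyme and lie head to head, so their windows of 300 bases, running from 250 before the start site to 50 after it, share 194 bases, with 307 bases between the start sites. HADHB fell and HADHA did not pass the threshold. CPT2 and ACADM had the largest falls of the mitochondrial group. The sequences are from RefSeq (GRCh38.p14), written 5′ to 3′ on the strand of the gene. HADHA is chr2:26244583-26244882 on the minus strand, HADHB chr2:26244689-26244988, CPT2 chr1:53196574-53196873 and ACADM chr1:75724459-75724758, each on the plus strand. Capitals mark the bases that the HADHA and HADHB windows share, which read as reverse complements of each other.
HADHA: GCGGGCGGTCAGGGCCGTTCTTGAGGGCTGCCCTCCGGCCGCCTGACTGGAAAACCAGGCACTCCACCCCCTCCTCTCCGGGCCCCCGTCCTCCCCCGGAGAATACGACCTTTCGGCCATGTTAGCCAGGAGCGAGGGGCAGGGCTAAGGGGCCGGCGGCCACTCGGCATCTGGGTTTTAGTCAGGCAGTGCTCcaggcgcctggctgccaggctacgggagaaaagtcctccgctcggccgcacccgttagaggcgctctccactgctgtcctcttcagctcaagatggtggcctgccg
HADHB: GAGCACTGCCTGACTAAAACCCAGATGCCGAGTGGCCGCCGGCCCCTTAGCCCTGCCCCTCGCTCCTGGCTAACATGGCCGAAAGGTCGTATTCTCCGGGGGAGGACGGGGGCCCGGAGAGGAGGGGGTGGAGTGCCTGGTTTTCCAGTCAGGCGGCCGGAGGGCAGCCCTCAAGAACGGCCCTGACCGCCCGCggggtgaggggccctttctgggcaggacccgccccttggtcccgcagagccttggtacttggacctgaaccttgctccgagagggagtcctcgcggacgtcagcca
CPT2: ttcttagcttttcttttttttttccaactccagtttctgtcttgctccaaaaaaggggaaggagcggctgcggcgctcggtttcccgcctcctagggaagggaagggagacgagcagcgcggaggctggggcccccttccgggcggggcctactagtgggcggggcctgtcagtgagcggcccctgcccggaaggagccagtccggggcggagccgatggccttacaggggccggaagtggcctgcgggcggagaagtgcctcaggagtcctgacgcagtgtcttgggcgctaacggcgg
ACADM: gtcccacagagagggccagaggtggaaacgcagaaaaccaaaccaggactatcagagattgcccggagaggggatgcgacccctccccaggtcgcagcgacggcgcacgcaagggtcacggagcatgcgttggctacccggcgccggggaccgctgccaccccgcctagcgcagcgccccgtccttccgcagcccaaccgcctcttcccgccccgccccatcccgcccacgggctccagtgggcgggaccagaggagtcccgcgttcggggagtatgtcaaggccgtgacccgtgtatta

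Genes of both oxidation pathways were mostly lower in ornithogalum-treated cells. Of 41 measured genes 16 fell and 1 rose at an adjusted p under 0.05 (limma, Benjamini-Hochberg over all clusters), with 24 not past the threshold. Over all 21214 clusters tested, 12.6% were called lower and 6.57% higher. The falls lay between 1.41-fold and 3.99-fold, and 7 of them reached 2-fold, a size of fall called in 5.29% of all clusters. The median log2 difference, ornithogalum minus vehicle, was -0.52 over the 41 genes and 0.04 over all clusters. Both ornithogalum arrays lay below both vehicle arrays for 29 of the 41 genes, and above them for 4, where this held for 30.2% and 32% of all clusters. With only the 10607 brighter clusters fitted, 3021 were lower and 1811 higher. The list had 29 genes among these brighter clusters, of which 15 were lower and 3 higher. The median log2 difference in that fit was -0.46 over those genes of the list and -0.07 over the brighter clusters.

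By pathway, 9 of 17 mitochondrial genes fell and 1 rose, with a median of -0.59. Of 9 peroxisomal oxidation genes 5 fell and 0 rose, with a median of -0.87 and every difference below 0. Of 11 peroxins 1 fell and 0 rose, with a median of -0.32. At an unadjusted p under 0.05 in limma, 10 of 17 mitochondrial genes, 8 of 9 peroxisomal oxidation genes and 4 of 11 peroxins were lower. Of all 21214 clusters 4156 were lower at that threshold. In the other direction, 1 of 17 mitochondrial genes, 0 of 9 peroxisomal oxidation genes and 2 of 11 peroxins were higher, where 14.2% of all clusters were. The differences between these 3 groups were not tested. The plot of differences by gene shows this order.

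**Figure D1:**
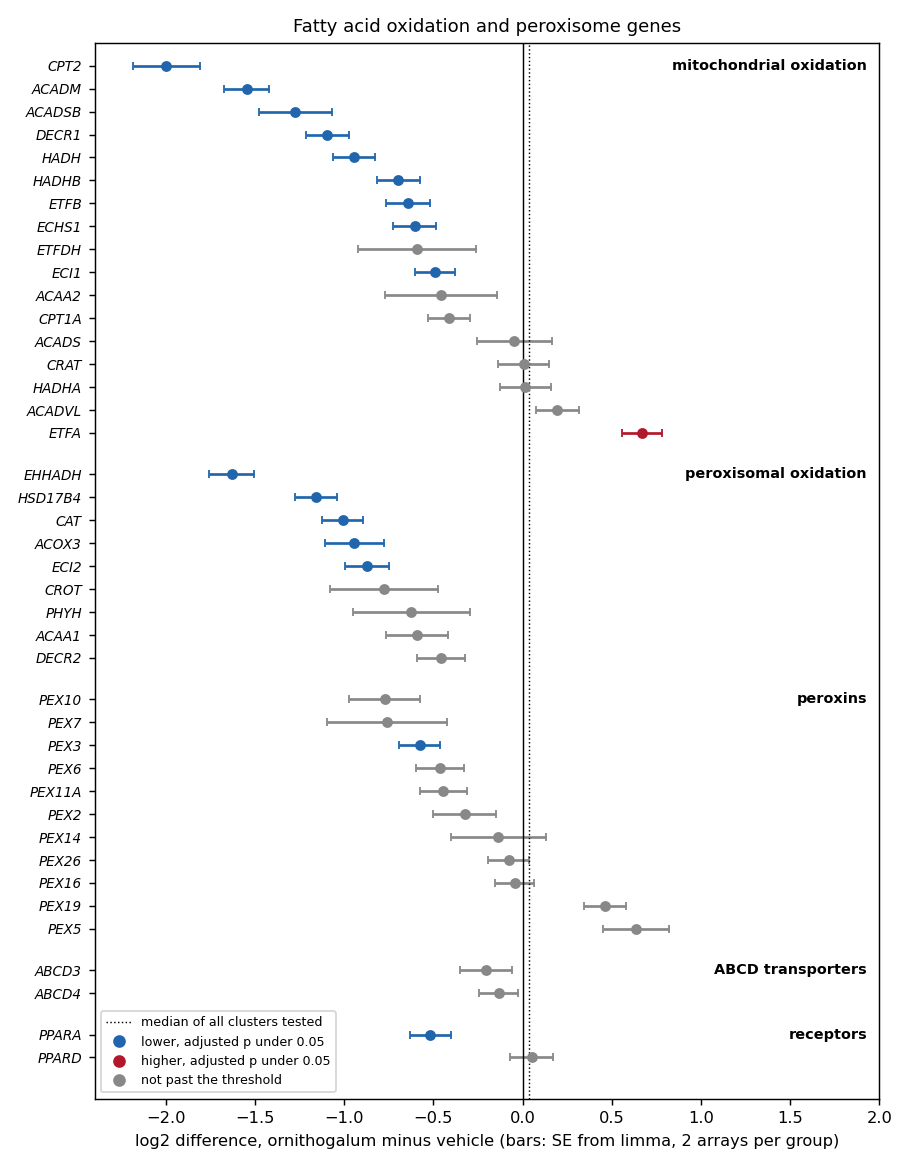
Log2 difference (ornithogalum minus vehicle) for each of the 41 measured genes, sorted within its group, with bars for limma's SE. Blue points fell and the red point, ETFA, rose. All 9 peroxisomal oxidation genes lie left of 0, between -1.63 and -0.46, while the peroxins run from -0.77 to 0.63.

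The ornithogalum arrays had a narrower spread of values than the vehicle arrays (interquartile range 2.44 and 2.56 against 2.72 and 2.71 over all clusters), and centring each array on its median shifted every difference upwards, to a median of 0.20 over all clusters. After centring 11 of the 41 genes fell and 2 rose, and over all clusters 1898 were lower and 2238 higher, against 2683 and 1393 on the deposited values. With all 33297 clusters of the table tested, 9 of the 41 fell and 0 rose, and HADHB, ETFA and ACOX3 were among those just missing the threshold (limma adjusted p = 0.052, 0.0505 and 0.055). Without vehicle replicate 1 or 2, limma called 0 genes of the list and 0 clusters in all, while at an unadjusted p under 0.05 the list had 16 and 15 genes lower and 1 and 3 higher. At that threshold 12.7% and 12.4% of all clusters were lower, and 7.03% and 6.35% higher. Without ornithogalum replicate 1 the median log2 difference was -0.49 over the list and 0.04 over all clusters. Without ornithogalum replicate 2 it was -0.50 over the list and -0.0019 over all clusters. The 6 epithelial markers had group means of 5.75 to 10.4 in ornithogalum cells and 6.08 to 10.5 in vehicle cells, and 1 of them, KRT19, fell. Of 15 measured markers of fibroblasts, leukocytes, endothelial and erythroid cells, hepatocytes and adipocytes, 0 passed the limma threshold in either direction, also at an unadjusted p under 0.05. These 15 had group means of 1.59 to 5.39 in ornithogalum cells and 1.44 to 5.49 in vehicle cells. No detection limit was set. The summed log2 level of the epithelial markers was 49.4 to 49.5 in ornithogalum and 50.5 to 50.8 in vehicle arrays. That of the fibroblast markers was 17.5 to 18.7 in ornithogalum and 17.3 to 17.4 in vehicle arrays, and that of the leukocyte markers 8.58 to 8.84 against 8.45 to 8.57. For the hepatocyte and adipocyte markers it was 14.8 to 15.02 in ornithogalum and 14.3 to 14.4 in vehicle arrays, and for the endothelial and erythroid markers 9.05 to 9.28 against 9.15 to 9.54. Within the epithelial sum the log2 difference was -1.40 for KRT19, -0.33 for CDH1, -0.14 for KRT8 and -0.02 for KRT18. It was 0.21 for EPCAM and 0.51 for CLDN4. Within the fibroblast sum, LUM and DCN had low values, 2.26 and 2.70 on ornithogalum replicate 1. On replicate 2 they had 1.58 and 2.01, and in vehicle cells 1.40 to 1.48 and 2.07 to 2.18. COL1A2 differed by 0.23, COL1A1 by -0.10 and PDGFRB by -0.12. The part of these sums in the results was not tested. In RNA of a whole culture, fewer cells and less RNA per cell cannot be told apart.

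Entry into mitochondria runs through the carnitine shuttle, of which CPT2, the acyltransferase of the inner membrane, had the largest fall of the list. CPT2 had log2 values of 3.43 and 3.66 in ornithogalum cells, against 5.33 and 5.76 in vehicle cells. Both treated arrays lay far below both vehicle arrays, and the fall was 3.99-fold (log2 difference -1.997, SE 0.19, limma adjusted p = 0.00452). The treated values of CPT2 lay near those of the endothelial marker CDH5 (3.53 and 3.83 in ornithogalum cells), so the size of its fall is uncertain. CPT1A, the outer-membrane enzyme that controls the rate of entry, had 5.56 and 5.61 in ornithogalum cells, against 6.07 and 5.93 in vehicle cells. Its groups did not overlap either, but the log2 difference of -0.41 (SE 0.12) did not pass (limma adjusted p = 0.0735). CRAT, which handles acetyl groups, had a log2 difference of 0.01 (SE 0.14), with overlapping groups.

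The acyl-CoA dehydrogenases, which take the first step of the cycle, were uneven along the range of chain lengths. ACADM, the medium-chain enzyme, had 5.62 and 5.66 in ornithogalum cells, against 7.28 and 7.09 in vehicle cells. This was a fall of 2.92-fold (log2 difference -1.55, SE 0.12, limma adjusted p = 0.00366). ACADSB, which acts on short branched chains, had 3.08 and 2.63 in ornithogalum cells, against 4.28 and 3.97 in vehicle cells, a fall of 2.42-fold (limma adjusted p = 0.0157). Its treated values lay near those of the leukocyte marker CD3E (3.15 and 2.87 in ornithogalum cells). The size of this fall is therefore uncertain. ACADVL, the very-long-chain enzyme, had 7.57 and 7.70 in ornithogalum cells, against 7.40 and 7.49 in vehicle cells, with a log2 difference of 0.19 (SE 0.12) that did not pass. ACADS, the short-chain enzyme, had 4.61 and 5.19 in ornithogalum cells, on either side of 4.96 and 4.94 in vehicle cells. Whether ACADM differs from ACADVL or ACADS in its change was not tested.

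The next steps belong to a soluble set of enzymes and to the trifunctional protein of the inner membrane. HADH, the soluble hydroxyacyl-CoA dehydrogenase, had 5.53 and 5.41 in ornithogalum cells, against 6.46 and 6.37 in vehicle cells, and fell 1.92-fold (limma adjusted p = 0.00829). ECHS1, the short-chain hydratase, had 6.09 and 6.20 in ornithogalum cells, against 6.69 and 6.81 in vehicle cells. It fell 1.52-fold (limma adjusted p = 0.0289), a call that ended after median centring (adjusted p = 0.0647). ACAA2, a thiolase, had 1.67 and 2.61 in ornithogalum cells, against 2.59 and 2.61 in vehicle cells, so only 1 treated array stood apart and the difference did not pass. DECR1 and ECI1 are the auxiliary enzymes that let unsaturated chains through the cycle. DECR1 had 3.86 and 4.02 in ornithogalum cells, against 5.00 and 5.07 in vehicle cells, a fall of 2.14-fold (limma adjusted p = 0.00615). ECI1 had 5.67 and 5.68 in ornithogalum cells, against 6.19 and 6.14 in vehicle cells. Its fall of 1.41-fold (limma adjusted p = 0.0386) was lost with the replicate number as a block (adjusted p = 0.0837) and after median centring (adjusted p = 0.12).

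Genes for partner subunits of the same complex had different log2 differences. HADHB, the thiolase subunit of the trifunctional protein, had 6.85 and 6.999 in ornithogalum cells, against 7.60 and 7.65 in vehicle cells, and fell 1.62-fold (limma adjusted p = 0.0185). HADHA, the subunit with the hydratase and dehydrogenase activities, had 7.46 and 7.74 in ornithogalum cells, against 7.53 and 7.64 in vehicle cells. The vehicle values lie between the treated ones, with a log2 difference of 0.01 (SE 0.14). In the electron transfer flavoprotein, ETFA was the only gene of the list that rose, with 8.69 and 8.77 in ornithogalum cells, against 8.08 and 8.03 in vehicle cells (1.59-fold, limma adjusted p = 0.0177). ETFB, the other subunit, had 5.01 and 5.16 in ornithogalum cells, against 5.67 and 5.78 in vehicle cells. It fell 1.56-fold (limma adjusted p = 0.0258), a call that ended after median centring (adjusted p = 0.0508). ETFDH, the membrane oxidoreductase that receives their electrons, had 3.86 and 2.86 in ornithogalum cells, against 3.94 and 3.96 in vehicle cells. Its treated arrays differed from each other by 0.99, the widest such gap of the list.

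The change of the ratio between partners was computed within arrays, for 3 pairs of genes chosen after their values were seen. The log2 value of ETFB minus that of ETFA changed by -1.32 in ornithogalum relative to vehicle cells, a shift of 2.49-fold. For HADHB minus HADHA the change was -0.71, or 1.64-fold. For PEX3 minus PEX19 it was -1.04, or 2.06-fold. In each pair both treated arrays lay below both vehicle arrays. The two-sided exact permutation test over the arrays gave p = 0.333 for each of the 3 pairs, the smallest value that this test allows with 2 arrays against 2. No other test of these differences was run.

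**Figure D2:**
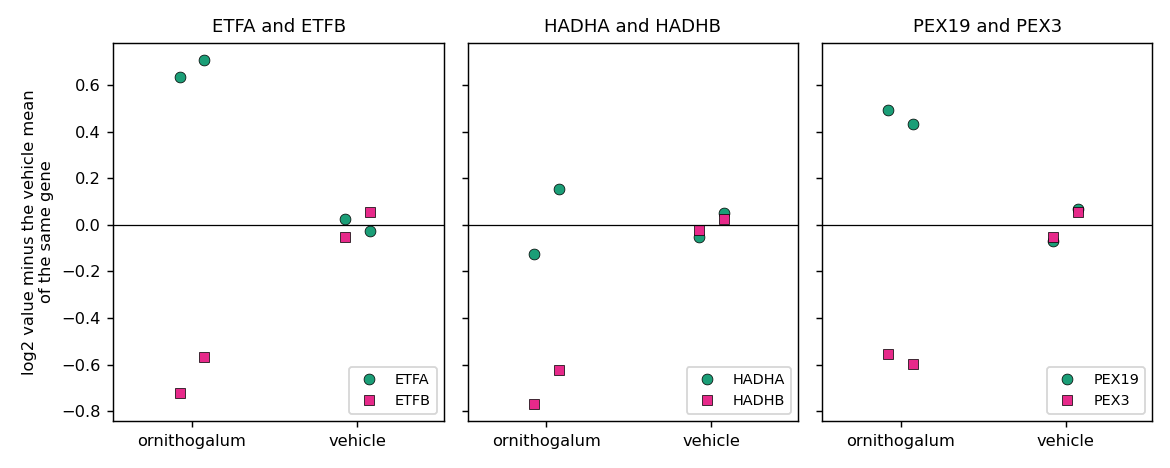
Log2 value of each gene minus its own vehicle mean, on each ornithogalum array and each vehicle array, for ETFA with ETFB, HADHA with HADHB and PEX19 with PEX3. The vehicle arrays of both partners sit near 0, and on the ornithogalum arrays the partners lie apart, with ETFA above 0 and ETFB below it.

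Among the peroxisomal enzymes the falls covered successive steps of the pathway. ACOX3, an acyl-CoA oxidase for branched chains, had 4.36 and 4.71 in ornithogalum cells, against 5.40 and 5.56 in vehicle cells, and fell 1.92-fold (limma adjusted p = 0.0194). EHHADH, the L-bifunctional enzyme, had 3.35 and 3.15 in ornithogalum cells, against 4.91 and 4.85 in vehicle cells. It had the largest fall of the peroxisomal group, 3.10-fold (log2 difference -1.63, SE 0.13, limma adjusted p = 0.00359). HSD17B4, the D-bifunctional enzyme, which takes the same steps for branched and very long chains, had 6.10 and 6.24 in ornithogalum cells, against 7.36 and 7.30 in vehicle cells. It fell 2.24-fold (log2 difference -1.16, SE 0.12, limma adjusted p = 0.00537). ACAA1, the thiolase of the last step, had 4.30 and 4.73 in ornithogalum cells, against 5.12 and 5.10 in vehicle cells. The groups did not overlap, but the difference did not pass (limma adjusted p = 0.0777).

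CAT, the catalase that removes hydrogen peroxide, had 5.28 and 5.34 in ornithogalum cells, against 6.36 and 6.28 in vehicle cells, and fell 2.01-fold (limma adjusted p = 0.00648). ECI2, an isomerase for unsaturated chains found in peroxisomes and mitochondria, had 5.31 and 5.41 in ornithogalum cells, against 6.31 and 6.15 in vehicle cells, and fell 1.83-fold (limma adjusted p = 0.0114). DECR2, the peroxisomal counterpart of DECR1, had 5.02 and 5.26 in ornithogalum cells, against 5.55 and 5.65 in vehicle cells, and did not pass (limma adjusted p = 0.0793). CROT, which makes carnitine esters for export, and PHYH, which starts the alpha-oxidation of phytanic acid, lay lower on both treated arrays but unevenly. CROT had 3.19 and 2.30 in ornithogalum cells, against 3.45 and 3.59 in vehicle cells. PHYH had 4.42 and 5.40 in ornithogalum cells, against 5.59 and 5.48 in vehicle cells. Neither passed, with treated arrays 0.89 and 0.98 apart. The called genes of both pathways are set out array by array in the plot of called members.

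**Figure D3:**
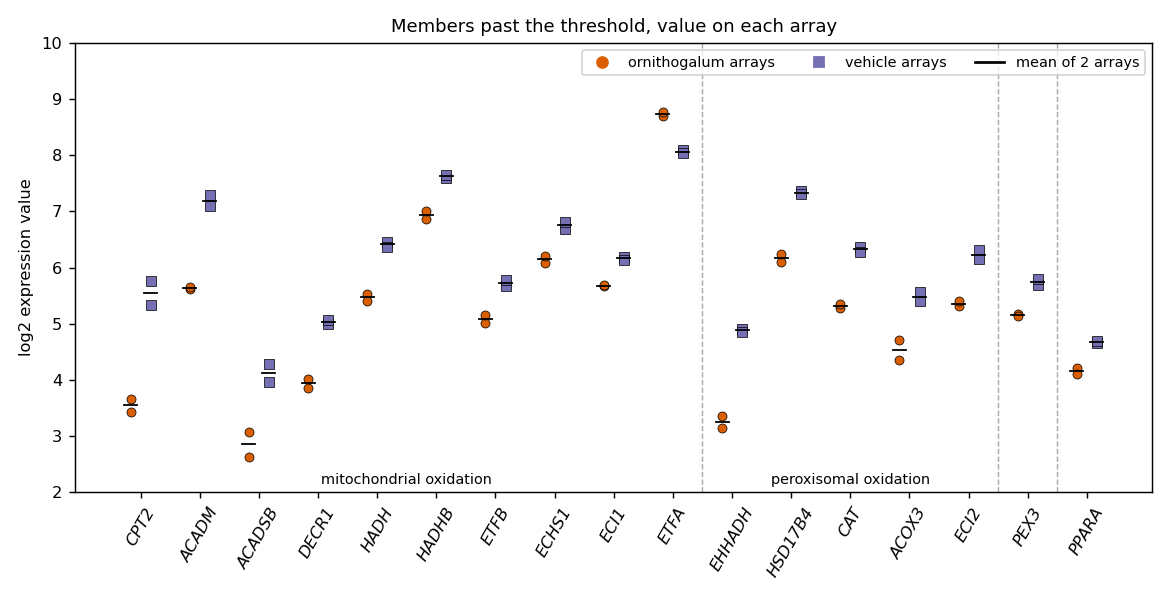
Log2 expression value on each array for the 17 genes past the threshold, ornithogalum arrays as circles and vehicle arrays as squares, with a bar at each mean. Dashed lines part mitochondrial oxidation, peroxisomal oxidation, the peroxin PEX3 and the receptor PPARA. ETFA is the 1 gene whose circles lie above its squares.

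Among the peroxins 1 of 11 fell, and the log2 differences had both signs. PEX3, the membrane anchor at which new peroxisomal membrane proteins arrive, had 5.18 and 5.14 in ornithogalum cells, against 5.68 and 5.79 in vehicle cells. It was the only peroxin that fell (1.49-fold, limma adjusted p = 0.0281), and the call ended with the replicate number as a block (adjusted p = 0.0593) and after median centring (adjusted p = 0.0889). PEX19, the chaperone that delivers those proteins to PEX3, had 6.65 and 6.59 in ornithogalum cells, against 6.09 and 6.23 in vehicle cells. Its log2 difference of 0.46 (SE 0.12) did not pass on the deposited values (limma adjusted p = 0.0554) and did after median centring (adjusted p = 0.0372). PEX16, which also serves the membrane, had a difference of -0.04 (SE 0.11).

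The import receptors had log2 differences of opposite sign, neither past the threshold. PEX5, which carries most matrix enzymes into the peroxisome, had 5.69 and 5.31 in ornithogalum cells, against 4.72 and 5.01 in vehicle cells. The log2 difference was 0.63 (SE 0.19, limma adjusted p = 0.0772), so both treated arrays were higher without passing. PEX7, the receptor for a smaller set of cargo that includes ACAA1 and PHYH, had 4.50 and 3.69 in ornithogalum cells, against 5.16 and 4.55 in vehicle cells. Its arrays were far apart in both groups and it did not pass (limma adjusted p = 0.187), although it did with the replicate number as a block (adjusted p = 0.03).

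PEX10, a ubiquitin ligase of the import complex, had 4.58 and 4.26 in ornithogalum cells, against 4.99 and 5.41 in vehicle cells, just short of the threshold (limma adjusted p = 0.0558). PEX2, its partner ligase, had a log2 difference of -0.32 (SE 0.18), and PEX14, the docking factor, one of -0.14 (SE 0.26). PEX6, an ATPase that recycles the receptors, had -0.46 (SE 0.13), and PEX26, its anchor, -0.08 (SE 0.11). PEX11A, which promotes division of peroxisomes, had -0.44 (SE 0.13). None of these 6 passed, with limma adjusted p from 0.0558 to 0.756.

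Of the transporters and receptors, PPARA alone passed the threshold. ABCD3, a peroxisomal importer of fatty acids, had a log2 difference of -0.21 (SE 0.15), and ABCD4, a family member known for lysosomal cobalamin transport, one of -0.14 (SE 0.11). At an unadjusted p under 0.05, 0 of these 2 genes passed limma. PPARA had 4.21 and 4.11 in ornithogalum cells, against 4.65 and 4.70 in vehicle cells. It fell 1.43-fold (limma adjusted p = 0.0372), and the call ended with the replicate number as a block (adjusted p = 0.0781) and after median centring (adjusted p = 0.129). PPARD had 5.65 and 5.50 in ornithogalum cells, which span 5.54 and 5.51 in vehicle cells.

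Further genes of these pathways, and of related enzymes and regulators outside them, came from a list of 61, of which 48 were measured. Of these 48, 13 fell and 2 rose, where 12.6% of all clusters were called lower and 6.57% higher. Their median log2 difference was -0.10, between the medians of the 41 genes and of all clusters. The largest falls were in peroxisomal hydrolases of cofactors, NUDT12 (log2 difference -2.12) and NUDT7 (-1.60). NUDT12 had 2.73 and 3.23 in ornithogalum cells, against 5.20 and 5.00 in vehicle cells. HACL1, the lyase that follows PHYH in alpha-oxidation, had 4.75 and 4.89 in ornithogalum cells, against 6.24 and 6.30 in vehicle cells, and fell by 1.44 on the log2 scale. The other 5 of the 8 largest called changes were falls too. They were in SLC27A2, a very-long-chain acyl-CoA synthetase (-1.10), the dehydrogenases ACAD9 (-1.05), ACAD10 (-0.97) and ACAD8 (-0.93), and the membrane channel PXMP2 (-0.97). The adjusted p from limma ran from 0.00381 to 0.0327 for the 8 genes.

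PPARGC1A, a coactivator of the PPAR receptors, had 5.26 and 5.43 in ornithogalum cells, against 4.48 and 4.67 in vehicle cells, and rose (log2 difference 0.77, SE 0.13, limma adjusted p = 0.0199). PPARG, named after its values were seen, fell by 0.85 (limma adjusted p = 0.025), with 6.20 and 6.58 in ornithogalum cells, against 7.25 and 7.23 in vehicle cells. The coactivator PPARGC1B and the nuclear receptors RXRA and ESRRA had log2 differences of 0.45, -0.27 and 0.06, none of which passed (limma adjusted p = 0.106, 0.358 and 0.885), and were named after their values were seen. PDK4, a PPAR target that restrains pyruvate oxidation, had 3.59 and 3.67 in ornithogalum cells, against 3.44 and 3.35 in vehicle cells, and did not pass (limma adjusted p = 0.219). ACSL5, an acyl-CoA synthetase and the other gene that rose, and the carnitine carrier SLC25A20, which fell, were also named after their values were seen. ACSL5 had 7.22 and 7.18 in ornithogalum cells, against 6.46 and 6.55 in vehicle cells. SLC25A20, which joins CPT1A to CPT2 in the shuttle, had 3.51 and 3.99 in ornithogalum cells, against 4.64 and 4.63 in vehicle cells (log2 difference -0.88, SE 0.19).

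**Figure D4:**
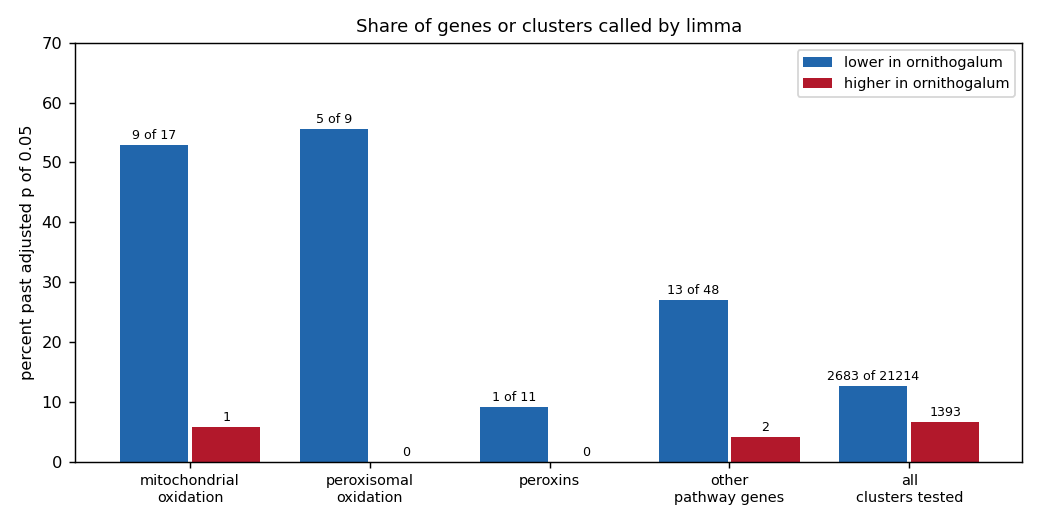
Percent of measured genes, or of all clusters, called lower (blue) or higher (red) by limma at an adjusted p under 0.05, with the counts above the bars. Of the mitochondrial and peroxisomal oxidation genes 9 of 17 and 5 of 9 were called lower, against 1 of 11 peroxins and 2683 of 21214 clusters.

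Promoter windows were found in RefSeq for 33 of the 41 genes, 14 of them among the 16 that fell. EHHADH and DECR1 fell but had no window, so the motif counts leave them out. Both strands were searched for 5 motifs. The full PPAR element, a direct repeat of AGGTCA with 1 base of any kind between, was in 0 of the 33 windows and in 0.0228% of all 35116 promoters of that length. Its unit, AGGTCA alone, which the full element holds, was in 1 (ABCD4), against 13.8% of all promoters. TCAAGGTCA, which ends in the same unit and is bound by oestrogen-related receptors, was in 0, against 0.353%, and the NRF1 element in 0, against 1.24%. The E-box CACGTG was in 1 (PEX10), against 7.26% of all promoters. The windows of the 14 genes that fell were 48.3% to 85.7% G and C, with a median of 68.3%, and those of the other 19 had a median of 63.3%, where the median of all promoters was 58.7%. These matches describe the letters of these windows only.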

How the data were processed

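RNA from 4 cultures of AGS cells was measured on Affymetrix Human Gene 1.0 ST arrays. The authors deposited 1 log2 value per array and transcript cluster, summarised by RMA, and the software listed per the submitters' processing notes is Affymetrix Expression Console 1.1. How background and scaling were set is not given in the sources used for this text. The table holds 33297 clusters. Platform annotation of GEO gave 1 symbol to 19460, several to 1754 and none to 12083. Symbols were updated through RefSeq gene numbers. The 21214 clusters with a symbol were compared by limma (version 3.58.1, R 4.3.3) on those log2 values as deposited, two-sided, by lmFit and eBayes, and p-values were adjusted by Benjamini-Hochberg (threshold 0.05). Dim clusters were kept. A log2 difference of 1 is a 2-fold change. The fit was tested on simulated data with the same spread for every cluster and few, large changes. That test does not cover uneven spread or the smaller and more frequent changes seen here.

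The members and lists were chosen with earlier results of these data known. All 44 members may be named. From the list of other pathway genes, the 8 largest called changes, PPARGC1A and PDK4 were named. The labels number the replicates in each group, but replicate differences of same-numbered arrays correlated at r = -0.06 across clusters, so the numbers were not taken to pair the samples. Alternatives were a replicate block, omission of each array, median centring, quantile scaling, brighter clusters only, an intensity trend, array weights and all clusters.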

Additional observations from a re-analysis of the deposited data

How the results depend on the processing

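No gene of the list that passed the threshold changed sign under any alternative, but only median centring and quantile scaling could have changed a sign. The groups of these 17 genes did not overlap, so leaving out 1 array could not reverse a difference. The other fits kept each log2 difference as it was. Of the 17, 9 (CPT2, ACADM, ACADSB, HADH, DECR1, ECI2, HSD17B4, EHHADH and CAT) stayed past the threshold under every alternative they could enter that kept all 4 arrays. Leaving out 1 array gave 0 to 21 lower and 0 to 3 higher genes of the list, with 0 for each vehicle array: 0 to 10 and 0 to 1 in mitochondrial oxidation, 0 to 8 lower in peroxisomal oxidation, and 0 to 2 lower and 0 to 2 higher peroxins. Over all clusters it gave 0 to 4004 lower and 0 to 3054 higher. With 3 arrays the lone array of a group is assumed to vary like the other group. With all 33297 clusters tested, 1677 were lower, and of the list 9 were lower and 0 higher, with 5 lower and 0 higher in mitochondrial oxidation and 0 lower peroxins. Median centring gave 2238 higher clusters, 2 higher genes of the list, and 0 lower and 1 higher peroxins. Quantile scaling gave 12 lower and 3 higher genes of the list, and 0 lower and 2 higher peroxins, where 2308 of 21214 clusters were lower and 1817 higher. Brighter clusters only (29 of the 41 genes) gave 15 lower and 3 higher genes of the list, and the intensity trend gave 19 and 3. Each of these fits gave 2 lower and 2 higher peroxins. Of the 10607 brighter clusters 3021 were lower and 1811 higher. With the intensity trend, 3344 of 21214 clusters were lower and 1822 higher. The replicate number as a block gave 14 lower and 1 higher genes of the list, and 2267 lower and 1035 higher clusters, and array weights gave 16 and 1. Neither moved these counts by over 1.5 times. The causes were not tested.

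Of genes not past the threshold, 9 changed sign. Median centring gave log2 differences of 0.113 for ACADS, 0.0237 for PEX14, 0.115 for PEX16, 0.0812 for PEX26 and 0.0246 for ABCD4. Quantile scaling gave 0.145, 0.0784, 0.154, 0.133 and 0.0687 for the same genes and -0.00092 for HADHA. Leaving out 1 array spanned -0.125 to 0.155 for HADHA, -0.12 to 0.13 for CRAT, -0.33 to 0.24 for ACADS, -0.927 to 0.00935 for ACAA2, -0.46 to 0.19 for PEX14 and -0.0271 to 0.130 for PPARD.

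With 2 arrays a group, no exact test over arrays can reach 0.05, and genes whose treated arrays lay far apart, such as ETFDH, PHYH, ACAA2 and CROT, have wide errors. Dim genes are a further limit, since no detection limit was set. The treated values of ACADSB, of EHHADH (3.35 and 3.15) and of NUDT12 (2.73 and 3.23) lay near those of CD3E (3.15 and 2.87). So did those of ACAD10 (3.07 and 3.24), and those of CPT2 (3.43 and 3.66) lay near those of CDH5 (3.53 and 3.83). The sizes of such falls are uncertain. Each gene had 1 cluster, with no further cluster to set its value against.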
